A study of Mus musculus with 8 samples.

Results

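The MPTP effect shared by both times is the difference between 4 retinal arrays from MPTP-treated mice and 4 from saline-treated mice, with time (1 or 4 weeks) as an additive term, so it uses all 8 arrays of the series. The mice were C57BL/6 males aged 6 weeks at the start, wild type as far as the labels say, and formed 4 groups of 6 mice, given saline or MPTP and taken after 1 week (7 days) or 4 weeks (28 days). The labels used here do not state the MPTP dose or injection schedule. Each array held RNA pooled from 4 whole retinas, and each group had 2 arrays. Whether the 2 pools of one group shared mice is not stated, so p-values measure only the spread between these arrays, which may be technical. Of 19938 genes measured, 9895 were well expressed, meaning a mean log2 signal of at least 7 over the 8 arrays. A gene is called shared when both MPTP arrays lay on the same side of both saline arrays at 1 week and again at 4 weeks, which held for 335 genes on the higher side and 450 on the lower side.

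MPTP is converted by monoamine oxidase B, largely in glia, to MPP+. Dopamine neurons take up MPP+ through their transporter, and inside mitochondria it blocks complex I, where NADH hands its electrons to the respiratory chain. In the retina dopamine is made by a sparse class of amacrine cells that adjusts the circuitry to light, while photoreceptors hold most of the mitochondria and Mueller glia take up and break down glutamate. The comparison over both times asks which genes differed between MPTP and saline retinas early as well as late.

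No gene passed the test over both times. With limma and Benjamini-Hochberg adjustment over 19938 genes, 0 genes (0%) had an adjusted p under 0.05, and the smallest adjusted p was 0.973. At an unadjusted p under 0.05 there were 950 genes among all and 509 among the well-expressed ones. Of the 509, 255 (2.58%) were higher and 254 (2.57%) lower with MPTP. With no effect, a share of about 0.05 of genes falls under this threshold, and both totals were near that share. The differences that follow are therefore descriptions of these arrays. Each is a log2 difference, MPTP minus saline, with the standard error of the limma fit and n = 4 arrays per treatment, or 2 at a single time.

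Marker levels were those of retina. Markers of rods had a mean log2 signal of 11.18 to 11.30 over the 8 arrays, and lists of astrocyte, microglial and oligodendrocyte markers averaged under 7 on every array. Th, which catalyses the limiting step in making dopamine, and Slc6a3, the dopamine transporter, were themselves below the level set for well-expressed genes. The main axis of variation was not treatment: the first principal component (38.3% of the variance) set saline 1 week array 2 (15.7) and MPTP 1 week array 1 (19.1) apart from the other arrays (-9.39 to -0.39). The second (17.7%) ran from -7.39 to -2.40 in saline arrays and was 1.93, 13.9 and 9.03 in MPTP arrays, with MPTP 4 weeks array 2 at -6.20, among the saline arrays. Markers of neighbouring tissue also varied. Lens markers (19 of 21 measured, 9 well expressed) averaged 6.83 to 7.20 in saline arrays and 6.67 to 7.65 in MPTP arrays. The 15 pigment epithelium and melanocyte markers averaged 7.09 to 7.31 and 6.98 to 7.50. In both lists MPTP 1 week array 1 was the lowest of the 8 arrays and MPTP 1 week array 2 the highest. MPTP 1 week array 2 also had the highest score on the second component. None of the well-expressed members of these 2 lists was shared. Of 5 well-expressed blood and muscle markers, the muscle actins Acta1 (0.11 ± 0.06) and Actc1 (0.09 ± 0.06) were shared on the higher side, where 3.39% of all well-expressed genes were. That list averaged 6.79 to 6.92 in saline and 6.79 to 6.98 in MPTP arrays. Whether lens, pigment epithelium or muscle was left on the retina, and its part in the results below, was not tested.

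How alike the MPTP effect was at both times depended on signal and on single arrays. Across the 9895 well-expressed genes, the effect at 1 week and at 4 weeks had the same sign in 58.3%, with Pearson r = 0.317 and a Spearman rank correlation of 0.292 across genes, which are not independent replicates. The times have no array in common, but all 8 arrays were normalized together. Below a mean log2 signal of 7, r lay between 0.0729 and 0.120 in the 3 signal classes, and it was 0.202 from 7 to 8, 0.442 from 8 to 9 and 0.549 at 9 and above. Without saline 1 week array 2, r over the well-expressed genes was 0.0220 and 46.7% had the same sign. Without MPTP 1 week array 2, r was 0.122, without saline 4 weeks array 2 it was 0.185, without MPTP 4 weeks array 1 it was 0.212, and without saline 1 week array 1 it was 0.489. With both arrays that stand apart left out, r was 0.143, and 0.284 at a signal of 9 and above. The likeness of the times thus depended on which arrays entered, with the lowest and the highest r when 1 or the other saline array of 1 week was left out.

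**Figure D1:**
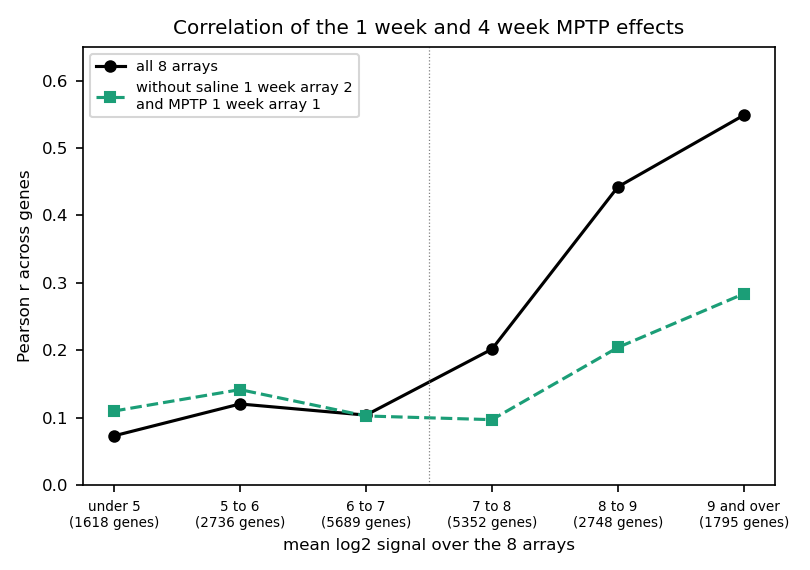
Pearson r across genes between the MPTP effect at 1 week and at 4 weeks (vertical axis) in 6 classes of mean log2 signal (horizontal axis, with the number of genes), with all 8 arrays (black) and without the 2 arrays that stand apart (green). With all arrays r climbs from 0.202 to 0.549 over the classes above 7, and without those arrays it ends at 0.284.

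Genes picked at 1 week were read on the separate arrays of 4 weeks. Of the 1686 well-expressed genes whose MPTP arrays both lay above both saline arrays at 1 week, 1064 (63.1%) had a higher MPTP mean at 4 weeks, against 42.2% of all well-expressed genes. Of the 1168 that were lower without overlap at 1 week, 864 (74.0%) were lower at 4 weeks, against 57.8% of all. The carried-over differences were small, with a median at 4 weeks of 0.02 for the first set and -0.05 for the second, where all genes had -0.02. Without saline 1 week array 2 the shares were 41.9% and 55.7%, no longer above those of all genes. Without MPTP 1 week array 2 they were 49.9% and 58.6%, and without both arrays that stand apart 45.3% and 60.7%. With 1 week arrays left out, fewer arrays had to lie apart, so the choice at 1 week was looser. These shares are therefore not like for like with 63.1% and 74.0%.

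The shared set held 335 genes on the higher side (3.39%) and 450 on the lower side (4.55%), and 255 further genes (2.58%) were without overlap at both times but in opposite directions. Of these shared genes, 111 had all 4 MPTP arrays above all 4 saline arrays (1.12% of well-expressed genes) and 204 had all 4 below (2.06%). By mean alone, 2696 genes (27.2%) were higher and 3076 (31.1%) lower at both times. The differences were slight: the median over both times was 0.14 on the higher side, a 1.10-fold difference, and -0.13 on the lower side. In 72.5% of the higher and 64.7% of the lower shared genes the difference was larger at 1 week than at 4 weeks. The same share over all well-expressed genes was not counted. Their differences were also more widely spread at 1 week (standard deviation across genes 0.111) than at 4 weeks (0.090). Whether the larger differences at 1 week are particular to the shared genes was thus not tested. In the limma test of the difference between the times, no gene had an adjusted p under 0.05 (69 well-expressed genes had an unadjusted one). Since the shared genes were chosen for lying apart at both times, their counts and medians are no test.

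**Figure D2:**
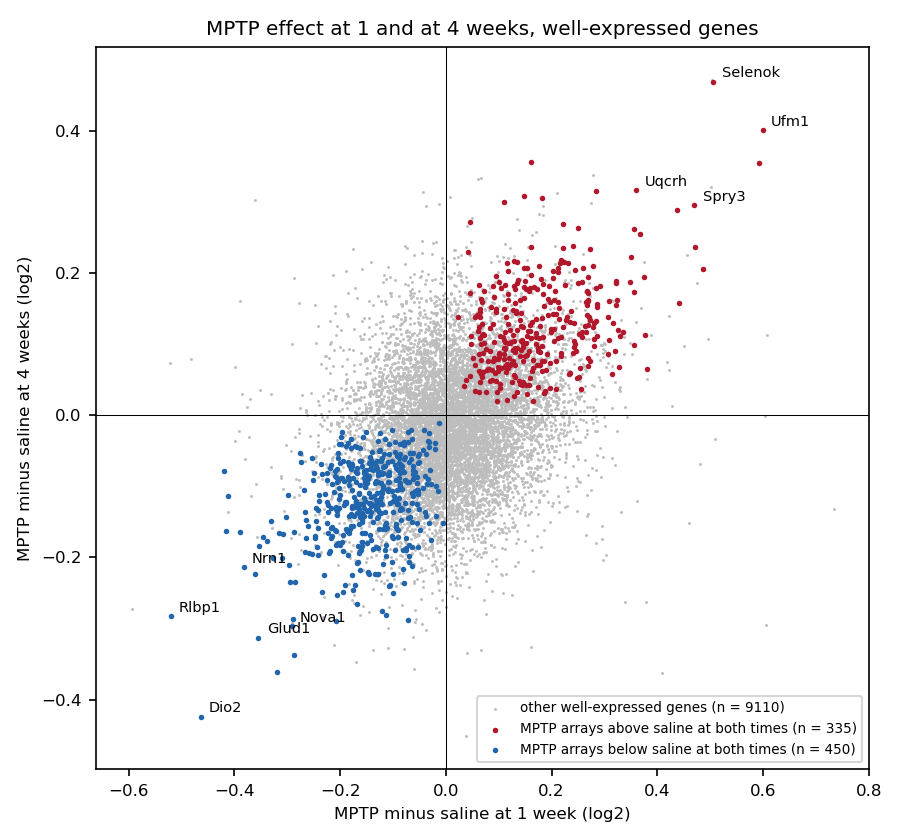
MPTP minus saline at 1 week (horizontal axis, log2) and at 4 weeks (vertical axis, log2), 1 point per well-expressed gene. The 335 genes without overlap on the higher side at both times (red) and the 450 on the lower side (blue) lie close to the main cloud, with Ufm1, Selenok, Uqcrh, Dio2, Rlbp1 and Glud1 among the farthest out.

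Genes of mitochondrial respiration stood mostly on the higher side. Uqcrh, the hinge subunit of complex III, which passes electrons from ubiquinol to cytochrome c, had log2 signals of 10.74 and 10.52 in the saline arrays and 10.97 and 11.01 in the MPTP arrays of 1 week. At 4 weeks it had 10.57 and 10.41 with saline and 10.84 and 10.78 with MPTP. All 4 MPTP arrays lay above all 4 saline arrays, the lowest of the first at 10.78 and the highest of the second at 10.74. The difference was 0.34 ± 0.07 over both times (limma, adjusted p = 0.973), 0.36 ± 0.10 at 1 week and 0.32 ± 0.10 at 4 weeks. Uqcrb, another small subunit of complex III, read 9.97 and 9.92 in saline and 10.31 and 10.27 in MPTP arrays at 1 week, then 9.84 and 9.74 in saline and 10.07 and 9.89 in MPTP arrays. The groups lay apart within each time, but MPTP 4 weeks array 2 was below both saline arrays of 1 week. The difference was 0.27 ± 0.07, and the 3 probe sets of Uqcrb gave 0.27 to 0.30.

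Over the nuclear-encoded subunits of complexes I to V and cytochrome c, 75 were well expressed, of which 11 (14.7%) were shared on the higher side and 2 (2.67%) on the lower side, beside 3.39% and 4.55% of all well-expressed genes. The 4 lists of these genes averaged 8.51 to 10.02 over the arrays, so they are brighter than most well-expressed genes. From 8 to 9, 3.93% of genes were shared on the higher side, and at 9 and above 5.63%. Of the 75, 48 (64.0%) had a higher MPTP mean at both times, where 27.2% of all well-expressed genes did. Complexes II and III, with 13 subunits, had 4 shared on the higher side and none on the lower: besides Uqcrh and Uqcrb, these were Uqcr10 (0.14 ± 0.06) and the core protein Uqcrc1 (0.07 ± 0.05). Complex IV, the oxidase that reduces oxygen, together with cytochrome c had 12 well-expressed members, the highest median of the 4 lists (0.12) and 10 members higher at both times. Cycs, cytochrome c itself, stood 0.22 ± 0.06 higher, Cox6c 0.21 ± 0.06 and Cox7a2l 0.16 ± 0.06. In each of these 3 genes all 4 MPTP arrays were above all 4 saline arrays, as in 1.12% of well-expressed genes.

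Complex I, the target of MPP+, had shared subunits on both sides. Of its 34 subunits 19 were higher and 5 lower at both times, beside 27.2% and 31.1% of all well-expressed genes. The median was 0.07. The accessory subunits Ndufb5 (0.23 ± 0.07), Ndufs4 (0.16 ± 0.06) and Ndufc1 (0.16 ± 0.07) were shared on the higher side, while Ndufv3 (-0.11 ± 0.06) and Ndufa5 (-0.10 ± 0.05) were shared on the lower side. ATP synthase had 1 shared subunit of 16, Atp5h of the peripheral stalk (0.18 ± 0.06), with a median of 0.06. No subunit passed the adjusted test. At an unadjusted p under 0.05, 14 of the 75 were higher and none lower, beside 2.58% and 2.57% of all well-expressed genes. The medians of the 4 lists kept their sign when each array was left out, from 0.10 to 0.15 for complex IV and from 0.05 to 0.10 for complex I, and they were 0.10 and 0.05 without the 2 arrays that stand apart.

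Respiratory subunit genes lie in many places in the genome, and NRF1 and GABP are transcription factors known for binding many of their promoters. Promoter windows from RefSeq (GRCm38.p6, 250 bases before to 50 after the start of the gene) were matched for 7931 of the 9895 well-expressed genes, and 64 of the 75 respiratory genes. Windows were searched on both strands for the NRF1 motif, GCGCA and GCGC with any single base between them, and for CCGGAAGT (GABP), neither of which contains the other. The NRF1 motif was present in 26.6% (17) of the 64 respiratory genes, in 12.1% of the well-expressed genes and in 4.60% of all 32851 windows. Among shared genes it was in 14.2% of the higher and 11.3% of the lower side. Of the shared respiratory genes with a window, Uqcrc1 and Atp5h on the higher side held the NRF1 motif and so did Ndufa5 on the lower side, while Uqcrh and Atp5h held the GABP motif. That motif was in 7.81% (5) of the 64 respiratory genes, 8.91% of well-expressed genes and 3.89% of all windows, so it was not more frequent in respiratory genes than in well-expressed genes. The windows of these 3 higher genes are shown because they hold the motifs, which are in capitals: Uqcrh at chr4:116075021-116075320 (minus strand), Atp5h at chr11:115419870-115420169 (minus strand) and Uqcrc1 at chr9:108936398-108936697 (plus strand), each printed 5′ to 3′ on the strand of the gene.
Uqcrh: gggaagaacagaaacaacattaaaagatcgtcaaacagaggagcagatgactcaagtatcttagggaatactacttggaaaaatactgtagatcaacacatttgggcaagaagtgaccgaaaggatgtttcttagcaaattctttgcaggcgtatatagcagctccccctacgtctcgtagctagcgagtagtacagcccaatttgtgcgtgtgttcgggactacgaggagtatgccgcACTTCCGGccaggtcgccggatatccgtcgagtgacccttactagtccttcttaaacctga
Atp5h: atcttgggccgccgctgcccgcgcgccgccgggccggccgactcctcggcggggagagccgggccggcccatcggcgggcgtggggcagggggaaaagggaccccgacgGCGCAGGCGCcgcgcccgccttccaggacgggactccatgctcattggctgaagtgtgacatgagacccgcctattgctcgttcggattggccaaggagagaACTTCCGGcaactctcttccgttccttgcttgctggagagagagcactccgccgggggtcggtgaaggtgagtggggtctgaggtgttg
Uqcrc1: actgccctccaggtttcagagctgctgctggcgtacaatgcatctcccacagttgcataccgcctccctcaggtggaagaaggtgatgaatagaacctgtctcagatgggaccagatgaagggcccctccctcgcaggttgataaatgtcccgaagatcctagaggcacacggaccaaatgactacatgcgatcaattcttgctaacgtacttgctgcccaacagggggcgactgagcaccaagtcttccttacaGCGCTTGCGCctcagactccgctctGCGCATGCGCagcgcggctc
Counted from the start of the gene, where the base before it is -1, the match in Uqcrh begins at -11, those in Atp5h at -141 (NRF1) and -39 (GABP), and those in Uqcrc1 at 6 and 31 (both NRF1). A match describes these letters only and shows no binding.

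The highest single values belonged to probe sets of Ufm1 and Selenok, genes that act at the endoplasmic reticulum. Ufm1, a ubiquitin-like modifier joined to ribosomes and other proteins at the endoplasmic reticulum, read 7.37 and 7.53 in saline and 8.03 and 8.08 in MPTP arrays at 1 week, then 7.52 and 7.15 in saline and 7.82 and 7.65 in MPTP arrays at 4 weeks. The treatments did not overlap over the 8 arrays. The difference was 0.50 ± 0.09, or 1.41-fold (limma, adjusted p = 0.973). A second probe set of Ufm1 (10498160, mean log2 signal 7.13) went the other way, at -0.12, against 0.50 for the brighter one used here (10498158), and the mean of both probe sets gave 0.19. Which of them measures the gene, and not a copy elsewhere in the genome, was not tested. The ufmylation list, which includes Ufm1, had 7 well-expressed members with 3 on the shared higher side, beside 3.39% of all well-expressed genes, and none on the lower, and a median of 0.18. Ufm1 counts among the 3 only by its brighter probe set. Beside Ufm1 these were Ddrgk1, the adaptor of the Ufm1 ligase (0.20 ± 0.06), and Ufsp2, a protease that takes Ufm1 off its targets (0.18 ± 0.06). Ufc1, the conjugating enzyme, stood at 0.24 ± 0.08 but overlapped at 4 weeks. The mean of the list was 8.04 to 8.18 in saline arrays and 8.19 to 8.40 in MPTP arrays. The treatments thus barely lay apart, with saline 1 week array 2 at 8.182 and MPTP 4 weeks array 2 at 8.186. This mean includes Ufm1 by its brighter probe set, and whether the arrays lie apart without Ufm1 was not tested.

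Selenok, a selenoprotein of the endoplasmic reticulum, had the least even values among the highest genes. Its log2 signals were 7.54 and 7.84 with saline and 7.95 and 8.44 with MPTP at 1 week, then 7.51 and 7.53 with saline and 8.39 and 7.59 with MPTP at 4 weeks. MPTP 4 weeks array 2 was below saline 1 week array 2, and the difference was 0.49 ± 0.16. Skp1, which links F-box proteins to cullin in a ubiquitin ligase, stood 0.31 ± 0.08 higher, with saline arrays at 9.28 to 9.39 and MPTP arrays at 9.42 to 9.82. Of 31 proteasome subunits 22 were higher at both times, 5 were shared on the higher side (Psma2, Psma4, Psmb3, Psmb4 and Psmd12, of which Psma4 at 0.17 ± 0.06 was the highest) and 1 on the lower side (Psmd1, -0.11 ± 0.06). Among all well-expressed genes 27.2% were higher at both times, 3.39% shared on the higher and 4.55% on the lower side. The list had a median of 0.08.

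Other high genes act in splicing, translation, folding and signalling. Zfp763, a zinc finger gene, read 7.28 and 7.45 in saline and 7.88 and 8.04 in MPTP arrays at 1 week, 7.38 and 7.16 in saline and 7.71 and 7.54 in MPTP arrays at 4 weeks, without overlap over the 8 arrays, and stood 0.47 ± 0.08 higher. Snrpd3, an Sm core protein of spliceosomal particles, differed by 0.31 ± 0.07 and Sf3b6, which contacts the branch site, by 0.30 ± 0.08. In the splicing list 3 of 32 members were shared on the higher side (Snrpd3, Lsm3 and Lsm5) and 1 on the lower (Srsf1), beside 3.39% and 4.55% of all well-expressed genes. Of the 32, 15 were higher at both times, beside 27.2% of all, and the median was 0.03. Pfdn5, a subunit of the co-chaperone prefoldin, stood 0.29 ± 0.06 higher, with saline arrays at 9.01 to 9.16 and MPTP arrays at 9.23 to 9.51. Spry3, a Sprouty inhibitor of receptor tyrosine kinase signalling, stood 0.38 ± 0.07 higher, and its groups lay apart within each time but not over all 8 arrays. Of the 42 cytoplasmic ribosomal proteins on the list used, 6 were shared on the higher side (3.39% of all well-expressed genes were) and none on the lower, with medians of 0.09 at 1 week and -0.01 at 4 weeks. The list leaves out some ribosomal protein genes, of which Fau (0.18 ± 0.06) and Rpl37a (0.14 ± 0.06) were shared on the higher and Rpl27a (-0.07 ± 0.06) on the lower side, named after their values were seen. Of 65 mitochondrial ribosomal proteins 5 were shared on the higher and 2 on the lower side, beside 3.39% and 4.55% of all well-expressed genes. Ribosomal protein and respiratory subunit genes have many processed copies in the genome, and how far these share probes was not tested.

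Other mitochondrial and folding genes went both ways. Of all well-expressed genes 3.39% were shared on the higher and 4.55% on the lower side. In the list of mitochondrial import and assembly, Tomm5 (0.18 ± 0.07) and Timm8b (0.12 ± 0.06) were shared on the higher side and Tomm22, the receptor that hands precursors to the outer membrane pore, on the lower side (-0.23 ± 0.06), of 27 genes with a median of 0.04. Among 15 chaperones, Hspe1, the small chaperonin of the mitochondrial matrix, stood at 0.15 ± 0.06, and its partner Hspd1 at -0.08 ± 0.05. Hspa9, the matrix Hsp70, stood at -0.13 ± 0.06, with all 3 shared. Of 19 genes of the unfolded protein response only Pdia3, a disulfide isomerase, was shared (0.16 ± 0.07), and the median was 0.00.

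A further 3 high genes have a second probe set with a smaller difference. Tmem229b gave 0.35 ± 0.07 by the brighter probe set and 0.05 by the other, Hacd2, an enzyme of very long chain fatty acid synthesis, 0.30 ± 0.08 and 0.08, and Eola1 0.35 ± 0.07 and 0.06. These values thus belong to single probe sets. Of the 12 highest genes, Selenok, Spry3, Hacd2 and Sf3b6 overlapped between treatments over the 8 arrays of both times. The next gene below the 12 was Cnih4 (0.28 ± 0.08). On the signal threshold, Pop5 (mean log2 signal 7.03, 0.23 ± 0.06) lay just inside and Fastkd1 (6.97, 0.26 ± 0.08) just outside.

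On the lower side, the lowest values were those of 3 single genes, Dio2, Rlbp1 and Glud1. Dio2, the deiodinase that turns thyroxine into active thyroid hormone, read 7.45 and 7.40 in saline and 6.94 and 6.98 in MPTP arrays at 1 week, then 7.36 and 7.41 in saline and 6.72 and 7.21 in MPTP arrays at 4 weeks. Every MPTP array was below every saline array, and MPTP 4 weeks array 1 was the lowest. The difference was -0.44 ± 0.09 (limma, adjusted p = 0.973), with -0.46 ± 0.14 at 1 week and -0.42 ± 0.14 at 4 weeks. Slco1c1, a carrier that brings thyroxine into cells, was lower in all 4 MPTP arrays too (-0.17 ± 0.06). Of the 10 well-expressed genes of thyroid hormone handling, 8 were lower at both times, where 31.1% of all well-expressed genes were. On the lower side 2 were shared (4.55% of all were) and none on the higher, and the median was -0.06. Thra, a thyroid hormone receptor, stood at -0.09 ± 0.06.

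The Dio2 promoter is known to respond to cyclic AMP, so its window is shown (RefSeq, GRCm38.p6, chr12:90738989-90739288, minus strand, 5′ to 3′). Capitals mark TGACGTCA, the cyclic AMP response element beginning at -95, and TATAAA, the TATA box beginning at -30.
Dio2: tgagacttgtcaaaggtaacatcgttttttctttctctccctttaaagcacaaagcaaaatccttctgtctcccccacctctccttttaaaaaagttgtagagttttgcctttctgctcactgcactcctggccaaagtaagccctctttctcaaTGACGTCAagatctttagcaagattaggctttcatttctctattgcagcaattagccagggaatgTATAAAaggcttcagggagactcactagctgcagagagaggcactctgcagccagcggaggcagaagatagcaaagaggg
On either strand, TGACGTCA was in 1.79% of all 32851 windows and in 3.81% of well-expressed genes. It was in 6.91% of shared lower and 5.11% of shared higher genes, so above the well-expressed share on both sides. TATAAA was in 13.6% of all windows and 8.95% of well-expressed genes. It was in 10.5% of shared lower and 6.57% of shared higher genes. These 2 motifs do not overlap in the window.

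Rlbp1, which carries retinaldehyde in Mueller glia and pigment epithelium, read 8.65 and 8.78 in saline and 8.19 and 8.20 in MPTP arrays at 1 week. At 4 weeks it read 8.59 and 8.58 in saline and 8.44 and 8.16 in MPTP arrays. The 4 MPTP arrays lay below the 4 saline arrays, with MPTP 4 weeks array 1 closest to them. The difference was -0.40 ± 0.08. Rdh12, a photoreceptor enzyme that reduces retinal, was the other shared gene of the visual cycle, at -0.19 ± 0.06 with no overlap over the 8 arrays. Over the 12 well-expressed genes of the cycle the medians were 0.13 at 1 week and -0.13 at 4 weeks. At 1 week the mean over the 15 measured genes was 8.35 and 8.27 in saline arrays. It was 8.23 in MPTP 1 week array 1 and 8.51 in MPTP 1 week array 2, where pigment epithelium markers were highest. The pigment epithelium gene Rpe65, the isomerase of the cycle, went from 0.61 at 1 week to -0.30 at 4 weeks. Of 19 Mueller glia markers, 11 were lower and 5 higher at both times, Rlbp1 was the single shared one, and the median was -0.05. Over all well-expressed genes 31.1% were lower and 27.2% higher at both times, and 4.55% were shared on the lower side, so the share of shared markers was near the background. In whole retina, fewer cells of a type and less RNA per cell cannot be told apart.

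Glud1, the mitochondrial dehydrogenase that turns glutamate into 2-oxoglutarate, had the smallest standard error among the 12 lowest genes. It read 8.86 and 8.97 in saline and 8.56 and 8.56 in MPTP arrays at 1 week, then 8.74 and 8.85 in saline and 8.50 and 8.46 in MPTP arrays at 4 weeks. All saline arrays lay above all MPTP arrays, and the difference was -0.33 ± 0.06 (-0.35 ± 0.09 at 1 week, -0.31 ± 0.09 at 4 weeks), between -0.36 and -0.31 under every alternative run. In the glutamate list 8 of 12 genes were lower at both times (31.1% of all well-expressed genes were) and 3 were shared on the lower side (4.55% of all), none on the higher. These were Glud1, the glutamate transporter Slc1a2 (-0.09 ± 0.06) and the glutamine transporter Slc38a1 (-0.13 ± 0.06). The list mean was 9.06 to 9.20 in saline and 8.99 to 9.07 in MPTP arrays, which overlap narrowly.

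Glycolysis, on which photoreceptors rely heavily, had 4 of 19 genes on the shared lower side and none on the higher, beside 4.55% and 3.39% of all well-expressed genes. Eno2, the neuronal enolase, stood at -0.24 ± 0.08, the monocarboxylate transporter Slc16a1 at -0.21 ± 0.09, Ldha, which makes lactate, at -0.19 ± 0.06, and the aldolase Aldoa at -0.09 ± 0.06. In these 4 genes all MPTP arrays were below all saline arrays, as in 2.06% of well-expressed genes. Hk1, the first enzyme of the pathway in neurons, went the other way at 0.24 ± 0.09 but overlapped at 4 weeks. The median of the list was -0.02, so the lower members did not bring the list as a whole far from 0. In the tricarboxylic acid cycle and pyruvate list only Pdha1, a subunit of pyruvate dehydrogenase, was shared, at -0.10 ± 0.06, among 19 genes with a median of 0.02.

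The remaining low genes include regulators of neurons. Nrn1, neuritin, a surface protein that promotes neurite growth and a ganglion cell marker, read 8.75 and 9.05 in saline and 8.50 and 8.53 in MPTP arrays at 1 week, then 8.67 and 8.73 in saline and 8.54 and 8.42 in MPTP arrays, a difference of -0.30 ± 0.08 without overlap. It was the single shared gene among 11 ganglion cell markers, where 4.55% of all well-expressed genes were shared on the lower side. The median of these markers was -0.03. Nova1, a neuronal splicing regulator, stood at -0.29 ± 0.07 by the brighter of its probe sets and -0.08 by the other. Sesn3, a stress-responsive sestrin, stood at -0.29 ± 0.08, Mtmr10 at -0.31 ± 0.08, and Get3, the ATPase that inserts tail-anchored proteins into the endoplasmic reticulum, at -0.27 ± 0.07. Ube2s, an ubiquitin-conjugating enzyme of the anaphase-promoting complex, stood at -0.28 ± 0.09, with -0.25 by its second probe set. Tmem259 stood at -0.26 ± 0.08 and Apba1, a synaptic adaptor protein, at -0.26 ± 0.09. Rab11b, a GTPase of recycling endosomes, stood at -0.26 ± 0.09 by 1 probe set and 0.25 by the other, and at -0.01 by their mean, so its direction depends on the probe set, and which one measures the gene was not tested. Mtmr10 and Ube2s overlapped between treatments over the 8 arrays, and the next gene was Tspan31 (-0.26 ± 0.07).

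**Figure D3:**
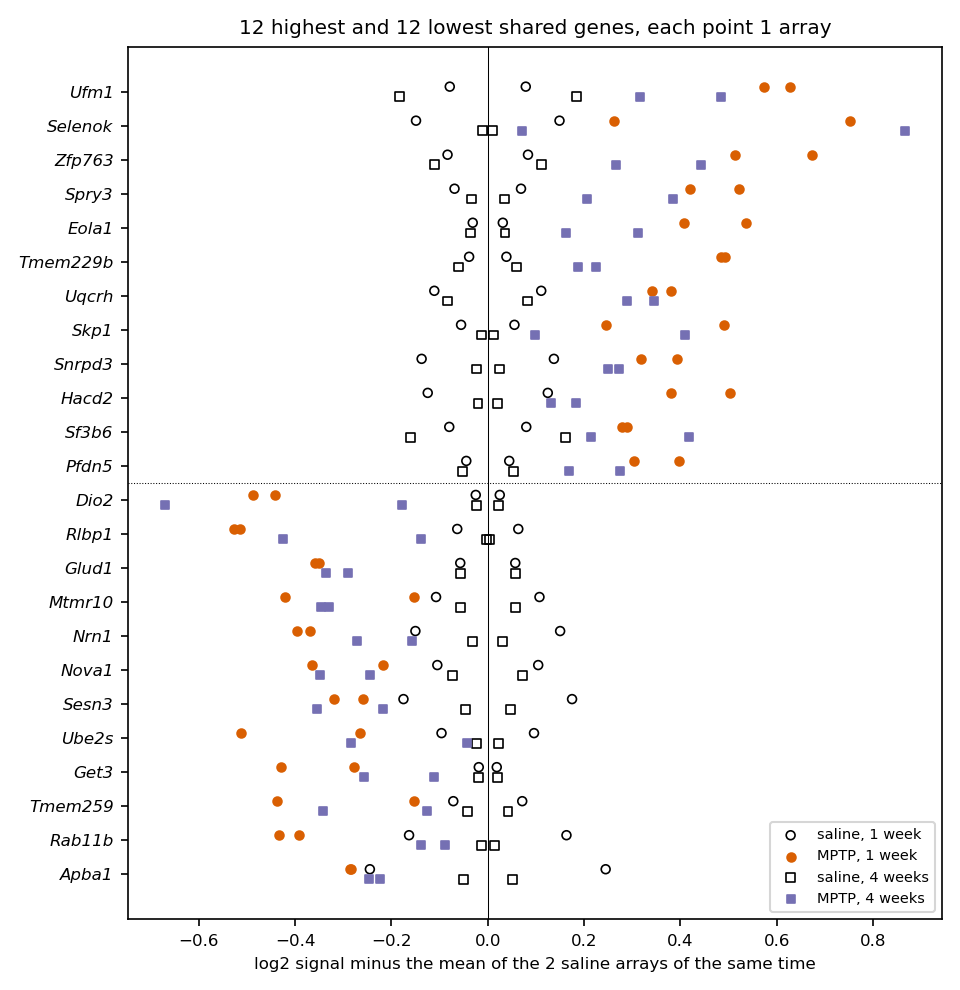
Log2 signal of each array minus the mean of the 2 saline arrays of the same time (horizontal axis) for the 12 highest and 12 lowest shared genes (rows), with saline as open and MPTP as filled symbols, circles for 1 week and squares for 4 weeks. Selenok and Dio2 show the widest spread between the MPTP arrays of 4 weeks, and Glud1 and Uqcrh among the narrowest.

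Cell type markers with shared members showed small differences. Beside the counts that follow, 3.39% of all well-expressed genes were shared on the higher and 4.55% on the lower side. All 4 MPTP arrays lay below all 4 saline arrays in 2.06%. Rom1, a disc rim protein of rods, stood 0.20 ± 0.06 higher and its partner Prph2 stood at -0.16 ± 0.06, and Nrl, the transcription factor of rod fate, stood at 0.08 ± 0.05. Over the 15 rod markers 2 were shared on the higher side and 1 on the lower, with a median of 0.01. Among bipolar cell markers Isl1 (-0.17 ± 0.06) and Otx2 (-0.14 ± 0.06), both transcription factors, were shared on the lower side and Vsx1 (0.11 ± 0.06) on the higher, of 14. Of 10 amacrine cell markers only Pax6 was shared, at -0.10 ± 0.06. Cabp4, which tunes calcium channels at photoreceptor synapses, stood at -0.26 ± 0.09 and was the single shared gene of 19 at that synapse. In the circadian clock list Clock (-0.11 ± 0.06) and Rora (-0.10 ± 0.06) were lower in all 4 MPTP arrays, 2 of 18 genes.

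The dopamine, interferon and gliosis lists held no shared gene. Of all well-expressed genes 3.39% were shared on the higher and 4.55% on the lower side. At those shares lists of 9, 12 and 10 genes can easily hold none, so this is near the background. None of the 9 well-expressed genes of dopamine synthesis, storage and breakdown was shared in either direction, and their median was 0.00. Th read 6.95 and 6.87 in saline and 6.76 and 6.74 in MPTP arrays at 1 week and 6.95 and 7.10 in saline and 6.98 and 7.04 in MPTP arrays at 4 weeks. Its MPTP arrays were below saline at 1 week and inside the saline range at 4 weeks, with -0.09 ± 0.06 over both times. Slc6a3 stood at 0.02 ± 0.10 (6.28 to 6.79 over the MPTP arrays, 6.38 to 6.72 over saline) and Gfap, the marker of reactive glia, at 0.01 ± 0.09, and the sign of both changed with single arrays left out. None of the 12 interferon response genes was shared: their median was 0.18 at 1 week and -0.03 at 4 weeks. The gliosis list likewise had 0 of 10 shared, with a median of 0.00. In the glutathione and NRF2 list Gsta4, a glutathione transferase, stood 0.19 ± 0.07 higher and Gclc, which limits glutathione synthesis, at -0.22 ± 0.07. Pink1, a kinase that guards mitochondria and a Parkinson disease gene, was the single shared one of 10 such genes, at -0.14 ± 0.06.

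**Figure D4:**
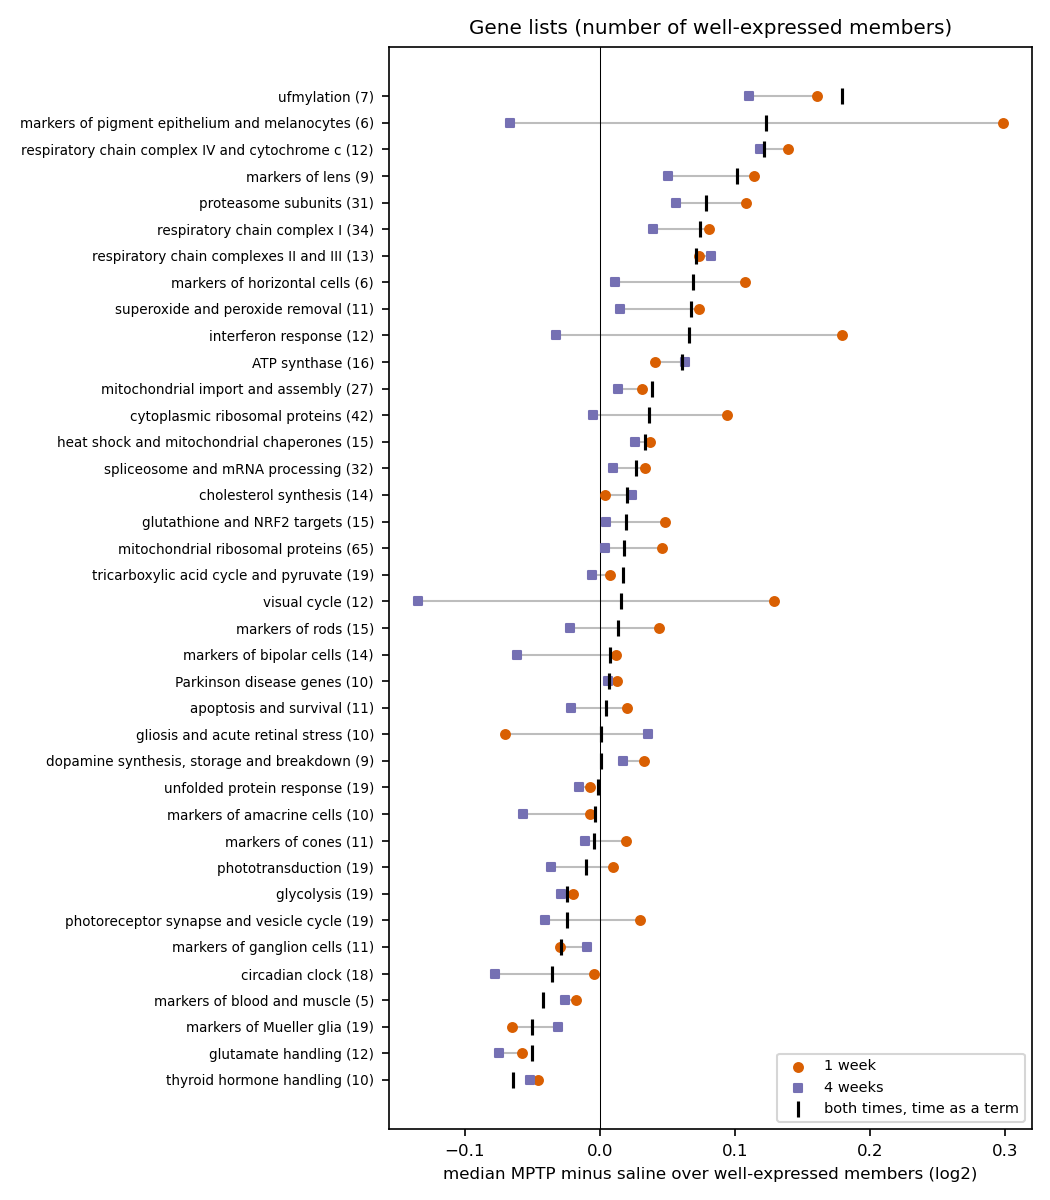
Median MPTP minus saline difference (horizontal axis, log2) over the well-expressed members of each gene list (rows, with the number of members, lists of at least 5) at 1 week (orange circles), at 4 weeks (purple squares) and over both times (black bars). The respiratory chain, proteasome and ufmylation lists lie above 0 and the glutamate and thyroid hormone lists below 0 at both times, while the pigment epithelium, visual cycle and interferon lists lie on opposite sides.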

How the data were processed

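The authors deposited 1 log2 value per probe set, and the submitters' processing notes name Affymetrix Expression Console and RMA without versions. Total RNA (100 ng) was amplified and labelled with biotin, per the labels' protocols. No genome build, scan date or batch is given in the labels. RMA evens out the arrays, so a shift common to most genes would not show. Of 28944 probe sets, 21789 named exactly 1 gene by the platform annotation, 1621 several and 5534 none. Only the first were used, with the brightest probe set kept for 999 genes that had several, which left 19938 genes. Of these, 82 symbols had no RefSeq entry, and of 868 gene list entries 794 matched. A gene with 2 probe sets can thus rest on one of them. The number of arrays limits the precision.

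Genes were fitted with limma 3.58.1 in R 4.3.3 (two-sided, Benjamini-Hochberg over all genes), with time and treatment as additive terms (5 residual degrees of freedom), or with a mean per group (4) for single times and their difference. The code was tested on simulated data. Named genes are the 12 highest and 12 lowest differences among well-expressed shared genes at unadjusted p under 0.05, passing over predicted, clone, receptor and small RNA names, plus a fixed set and up to 4 members per list with the smallest p. Other members are named where they make up a count of shared genes. A clone-like symbol seen among the lowest genes was passed over after its values were known, which brought in Apba1. The members and lists were chosen with earlier results of these data known. Alternatives were other normalizations, probe set rules, variance models, signal thresholds, a block and arrays left out. Promoters were matched by Entrez gene number, and a gene counted as holding a motif when any of its windows did, whereas shares of all windows count each window. Array numbers did not pair the arrays. Figures were drawn with matplotlib 3.10.9.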

Additional observations from a re-analysis of the deposited data

Results flagged for a closer look

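Of 86 groups of 4 arrays examined, 7 had 1 array far from the other 3 by Dixon's criterion, and chance flags about 1 in 20 groups. Selenok read 7.835 in saline 1 week array 2, the highest saline array. Sf3b6 read 7.537 in MPTP 4 weeks array 2, the lowest MPTP array. Rlbp1 read 8.443 in MPTP 4 weeks array 1, the highest MPTP array, so its lower signal was least marked there. Mtmr10 read 7.446 in MPTP 1 week array 1, again the highest MPTP array. Gfap read 6.455 in saline 4 weeks array 2, the lowest saline array. Mean signal of the amacrine cell markers was 8.04 in saline 1 week array 1, and that of the oligodendrocyte and optic nerve markers was 6.374 in saline 1 week array 2, each the lowest of the saline arrays.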

How the results depend on the processing

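Over both times 0 genes passed the adjusted threshold under each of the 17 alternatives. At unadjusted p under 0.05, the lower count was 587 with array weights and 388 with trend and robust settings against 254, and with single arrays left out the higher count ran from 136 to 334 and the lower from 131 to 632. Shared counts with arrays left out ran from 470 to 848 (higher) and from 570 to 1527 (lower), and were 782 and 1123 without both arrays that stand apart, since fewer arrays overlap less. They were 209 and 242 at a mean of at least 8, 528 and 680 with no filter, and 111 and 204 for all 4 against all 4. The share of genes with the same sign ran from 46.7% to 67.6% with single arrays left out and was 51.9% without both arrays. The correlation ran from 0.0220 to 0.489, and was 0.143 without both, 0.196 at a mean of at least 6, 0.481 at 8 and 0.145 with no filter. The carry-over from 1 to 4 weeks, added after seeing the data, was 68.1% (cyclic loess), 57.6% (median centring) and 45.3% (without both arrays) for higher genes, with 41.9% to 67.6% over single arrays, and 60.7% and 55.7% to 78.6% for lower genes. The cause of these shifts was not tested. The 24 highest and lowest genes kept their sign in all 408 values. They were chosen for lying apart at both times, so leaving arrays out could not change their sign. For these genes the kept sign is therefore no test. Of 38 list medians, 19 kept their sign under all 17 alternatives, among them the respiratory, proteasome, ufmylation, glutamate, thyroid and glycolysis lists.

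Array numbers did not pair the arrays: same-numbered arrays of different groups had deviations correlated from -0.383 to 0.207. With the array number as a replicate block, 242 genes were higher and 227 lower at unadjusted p under 0.05.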
